A study of Rattus norvegicus with 56 samples.

Results

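The miR-34 and miR-449 microRNAs are 5 mature microRNAs, miR-34a-5p, miR-34b-5p, miR-34c-5p, miR-449a-5p and miR-449c-5p, out of 682 rat microRNAs listed in the deposited tables. They were taken by name, and the set was chosen because miR-34c-5p and miR-449c-5p differ between VSD and non-VSD myocardium. The values of that contrast are therefore given as a description without a test. Small RNA was sequenced from Sprague-Dawley rats on D19 of pregnancy, in 56 samples with 7 in each group. DMO dams received dimethadione by gavage, 6 doses of 5 ml/kg of a 60 mg/ml solution, given every 12 h and starting on D8, while NC dams received distilled water on the same schedule. The fetuses of DMO dams were split into a VSD group, with a ventricular septal defect, and a non-VSD group, with an intact septum, so both carry the exposure. Myocardium (paraffin blocks of the fetal heart) and amniotic fluid supernatant were taken from fetuses of all 3 groups, while maternal serum came from NC dams and dams of the VSD group. DMO was given to dams, and which fetuses shared a dam is not stated. The p-values below therefore measure the spread between these samples, and may be too small for a difference between dams.

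A microRNA silences messenger RNAs that pair with its seed, bases 2 to 8, so that microRNAs with one seed act on overlapping targets. The miR-34a gene is a direct target of the tumour suppressor p53. The miR-34b/c and miR-449 clusters are known for their high levels in multiciliated epithelia, such as those of the airway and oviduct, and in germ cells of the testis, and they act together in the formation of motile cilia. In the heart, miR-34a is best known for its rise with age and injury. Small RNA libraries do not measure protein-coding markers of ciliated cells, so the source cells of these microRNAs could not be checked directly.

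The sequences are printed to show what ties the family together and where its members part. All 5 matched RefSeq (rat build GRCr8), and capitals mark the seed.
miR-34a-5p: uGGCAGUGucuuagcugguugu
miR-34b-5p: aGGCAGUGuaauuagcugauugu
miR-34c-5p: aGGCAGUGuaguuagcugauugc
miR-449a-5p: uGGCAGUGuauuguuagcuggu
miR-449c-5p: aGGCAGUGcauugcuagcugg

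The seed GGCAGUG was the same in all 5, and 0 other names among the 693 mature rat names in the table had it. The family comes from 3 loci. miR-34a-5p lies alone at chr5:165815971-165815992 on the plus strand. miR-34b-5p (chr8:60306657-60306679) and miR-34c-5p (chr8:60306133-60306155) lie on the minus strand, with 441 bases between their hairpins. miR-449c-5p (chr2:46402394-46402414) and miR-449a-5p (chr2:46403925-46403946) lie on the plus strand, with 1436 bases between their hairpins. Position by position from the 5′ end, miR-34b-5p and miR-34c-5p were identical at 21 of 23 bases (91.3%), and miR-449a-5p and miR-449c-5p at 18 of 21 (85.7%). miR-34a-5p shared 15 of 22 bases (68.2%) with miR-449a-5p. How reads that match more than 1 of these near-identical sequences were assigned is not given in the sources used here.

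The 56 libraries held between 1694811 and 9371130 counts in myocardium, between 78188 and 331787 in amniotic fluid and between 147609 and 581350 in maternal serum. A count of 0 therefore allows at most 1.77, 38.4 and 20.3 CPM (counts scaled to a library total of 1000000) in the smallest library of each, taking 3 counts as the limit and counting error alone. CPM are scaled by TMM within a tissue. The amniotic fluid libraries were made with another kit and sequencer than the others, so levels are not compared across tissues. The defining heart muscle microRNAs, among them miR-1-3p and miR-133a-3p, were counted in all 3 myocardium groups. One myocardium library stood apart, NC replicate 2: its 6 heart muscle microRNAs summed to 4079 CPM against 26437 to 99040 CPM in the other 6 NC samples, and its 8 epithelial microRNAs (the miR-200 family, miR-203a-3p, miR-205 and miR-375-3p) to 14234 CPM against 251 to 5211 CPM. Results that rest on it are given with and without it.

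In myocardium, miR-34c-5p was the member with the highest median level in every group. It stood at 229 CPM in the lowest NC sample, 544 CPM in the median one and 2289 CPM in the highest. In the non-VSD group the same values were 245, 324 and 591 CPM, and in the VSD group 451, 656 and 1182 CPM. The group means were 719.5 ± 712 (NC), 338.5 ± 119 (non-VSD) and 772.5 ± 264 CPM (VSD; SD, n = 7 each). The groups overlapped, although 5 of 7 VSD samples were above every non-VSD sample and 7 of 7 were above the non-VSD median. The highest NC value belonged to NC replicate 2, without which the NC samples ended at 668 CPM.

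miR-34b-5p, processed from the neighbouring hairpin, had the lowest mean level of the 5 in each group, although by median miR-449c-5p was lower in NC and non-VSD. It ranged from 2.51 to 33.6 CPM around a median of 8.19 CPM in NC, from 2.27 to 8.35 CPM (median 5.12 CPM) in non-VSD and from 5.85 to 21.3 CPM (median 11.1 CPM) in VSD. Again 5 of 7 VSD samples were above every non-VSD sample, and the highest NC sample was replicate 2.

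The miR-449 members varied far more between samples. miR-449a-5p went from 6.91 through a median of 21.8 to 1107 CPM in NC, a 160-fold range within 1 group. It went from 4.68 through 31.8 to 234.5 CPM in non-VSD and from 39.7 through 238 to 819 CPM in VSD. Of the VSD samples, 4 of 7 were above every non-VSD sample and 7 of 7 above the non-VSD median, but the ranges overlapped. miR-449c-5p was also highest by median in VSD, but its non-VSD median lay below that of NC. It had 1.20, 5.72 and 205 CPM as lowest, median and highest in NC, 1.34, 4.13 and 47.9 CPM in non-VSD and 8.29, 83.1 and 190.4 CPM in VSD. For both, NC replicate 2 was above all VSD samples. The other 6 NC samples lay between 6.91 and 111 CPM for miR-449a-5p, below 6 of 7 VSD samples, and between 1.20 and 40.9 CPM for miR-449c-5p, below 4 of 7.

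miR-34a-5p, the member from its own locus, had the narrowest range of the 5 in NC and in non-VSD, but not in VSD, where miR-34b-5p and miR-34c-5p ranged less. It went from 22.8 through 41.3 to 105.5 CPM in NC, from 44.0 through 53.5 to 78.1 CPM in non-VSD and from 35.1 through 68.7 to 150.3 CPM in VSD. The VSD samples lay on both sides of the non-VSD group, with 3 of 7 above all of it and 2 of 7 below all of it.

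**Figure D1:**
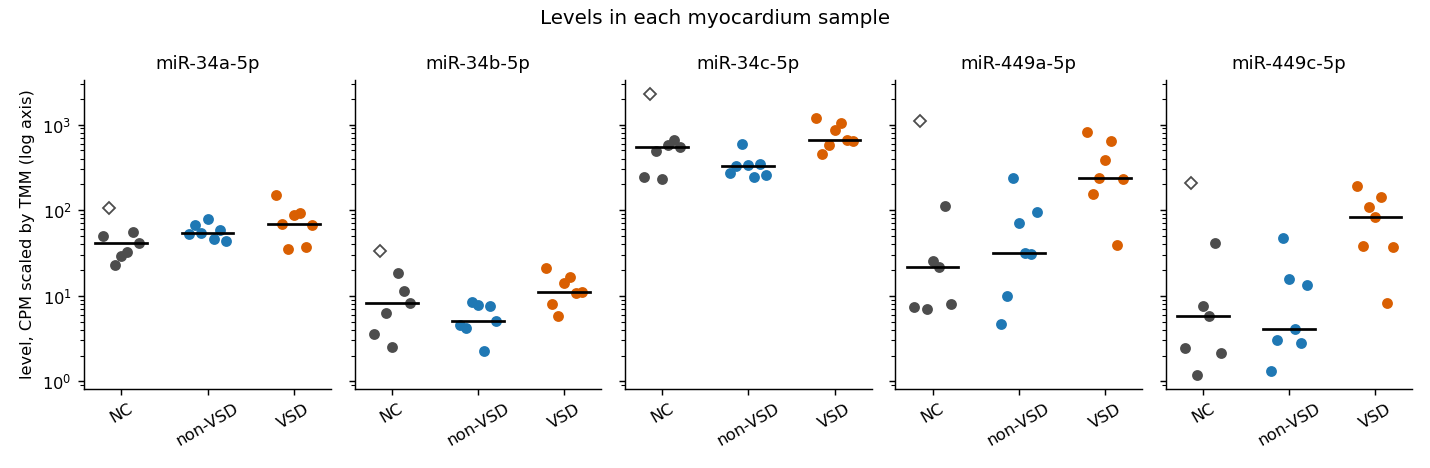
Level of each of the 5 members in every myocardium sample, in CPM scaled by TMM on a log axis, by group, where points are samples, bars are group medians and the open diamond is NC replicate 2. miR-449a-5p and miR-449c-5p are spread over the widest range, from 4.68 to 1107 CPM and from 1.20 to 205 CPM, and VSD medians are the highest of the 3 groups for all 5 members.

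In the contrast that chose the members, VSD against non-VSD myocardium, all 5 were higher in VSD. The log2 fold changes were 0.44 for miR-34a-5p, 1.14 for miR-34b-5p, 1.19 for miR-34c-5p, 2.39 for miR-449a-5p and 2.77 for miR-449c-5p, with standard errors of 0.33, 0.46, 0.40, 1.08 and 1.04. They were 2-fold or more higher for 4 of 5 members, and 7.04% of the 483 microRNAs fitted were. Since the members were picked on this contrast, nothing is read from that count. Without non-VSD replicate 3, the highest non-VSD sample for both, miR-449a-5p was at 3.14 and miR-449c-5p at 3.69. Without VSD replicate 1 they were at 2.04 and 2.45, the lowest values with a single sample left out. The median log2 fold change was 1.19 over the members and 0.02 over all microRNAs.

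Against NC, the DMO groups lay on opposite sides of 0 for 4 of 5 members. VSD against NC gave log2 fold changes of 0.67 (miR-34a-5p), 0.05 (miR-34b-5p), 0.09 (miR-34c-5p), 0.93 (miR-449a-5p) and 1.16 (miR-449c-5p). Non-VSD against NC gave 0.28, -1.05, -1.06, -1.42 and -1.57 in the same order. The standard errors were 0.38, 0.49, 0.45, 1.08 and 1.01 for VSD against NC. They were 0.30, 0.50, 0.45, 1.17 and 1.10 for non-VSD against NC. For miR-34b-5p, miR-34c-5p and miR-449a-5p the VSD value was smaller than its standard error. Both comparisons share the NC samples, and both share a DMO group with the contrast that chose the members, so no test is given. These values rest on NC replicate 2. Without it, VSD against NC was 0.72 for miR-34c-5p, 3.57 for miR-449a-5p and 3.10 for miR-449c-5p, and non-VSD against NC was -0.39, 1.21 and 0.36. Without NC replicate 4, VSD against NC was -0.20 for miR-34b-5p and -0.15 for miR-34c-5p.

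The contrast that the choice of members did not fix is the average of both DMO groups against NC. In it, 0 of 5 members met the threshold of a DE-microRNA (a 2-fold or larger difference in either direction with an unadjusted p under 0.05), and 0 of 5 had an unadjusted p under 0.05. Of all 483 microRNAs tested, 4.76% were DE-microRNAs, 21.1% had an unadjusted p under 0.05 and 8.49% an adjusted p under 0.05. By edgeR's quasi-likelihood test with Benjamini-Hochberg adjustment, the log2 fold changes were 0.46 (SE 0.29, adjusted p = 0.393) for miR-34a-5p, -0.51 (SE 0.38, 0.472) for miR-34b-5p and -0.49 (SE 0.34, 0.428) for miR-34c-5p. They were -0.24 (SE 0.88) for miR-449a-5p and -0.20 (SE 0.83) for miR-449c-5p, with an adjusted p of 0.914 for both in edgeR, and these 2 turned positive with limma (1.56 and 1.12). With standard errors of this size, a 2-fold difference in the miR-449 members was not detectable.

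Leaving out NC replicate 2 changed this result. Then miR-449a-5p was higher in the DMO groups by 2.49 on the log2 scale (SE 0.81, edgeR adjusted p = 0.0475) and miR-449c-5p by 1.83 (SE 0.81, edgeR adjusted p = 0.131), and both met the DE-microRNA threshold, as did 11.8% of 485 microRNAs (8.04% in the higher direction). miR-34a-5p was higher by 0.87 (SE 0.28, edgeR adjusted p = 0.0445), short of 2-fold. An adjusted p under 0.05 was reached by 12.6% of microRNAs in that fit. Over the 27 alternatives, the adjusted p ran from 0.0475 to 0.961 for miR-449a-5p and from 0.0445 to 0.581 for miR-34a-5p. miR-34b-5p and miR-34c-5p turned to 0.11 and 0.26. In the same comparison the epithelial list had 0 of 8 DE-microRNAs with all samples and 7 of 8, all higher, without NC replicate 2. In either fit, 0 of these 8 had an edgeR adjusted p under 0.05. NC replicate 2 was the highest NC sample for every member and for the summed epithelial list. Leaving out the highest control raises such a difference by itself, so the values without it are no independent evidence of a rise. The 4 red blood cell microRNAs were DE-microRNAs in both fits, all lower, and all 4 had an edgeR adjusted p under 0.05 in both. Their median log2 fold change was -1.995 with all samples and -2.12 without NC replicate 2. The part of these lists in the result was not tested.

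Members from 1 locus kept their proportion within a much narrower range than their levels. The ratio of miR-34c-5p to miR-34b-5p counts had a median of 61.6 over the 21 myocardium samples and stayed between 31.2 and 108. Its medians were 67.7 in NC, 59.7 in non-VSD and 60.9 in VSD. Within non-VSD the ratio ran from 43.6 to 108, no narrower than the 2.41-fold range of miR-34c-5p itself. miR-34b-5p had as few as 8 counts in an NC sample, so single ratios are coarse. The ratio of miR-449a-5p to miR-449c-5p counts had a median of 4.52 and stayed between 2.16 and 11.1, with medians of 3.69, 4.90 and 4.52. Between the loci, miR-449a-5p against miR-34c-5p went from 0.0140 to 0.693, with medians of 0.0382 in NC, 0.130 in non-VSD and 0.412 in VSD. NC replicate 2, at 0.483, was the highest NC sample by this ratio. miR-34c-5p against miR-34a-5p, also from different loci, stayed between 4.35 and 21.7. That spread was close to the one of miR-449a-5p to miR-449c-5p, so not every proportion between loci varied more.

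**Figure D2:**
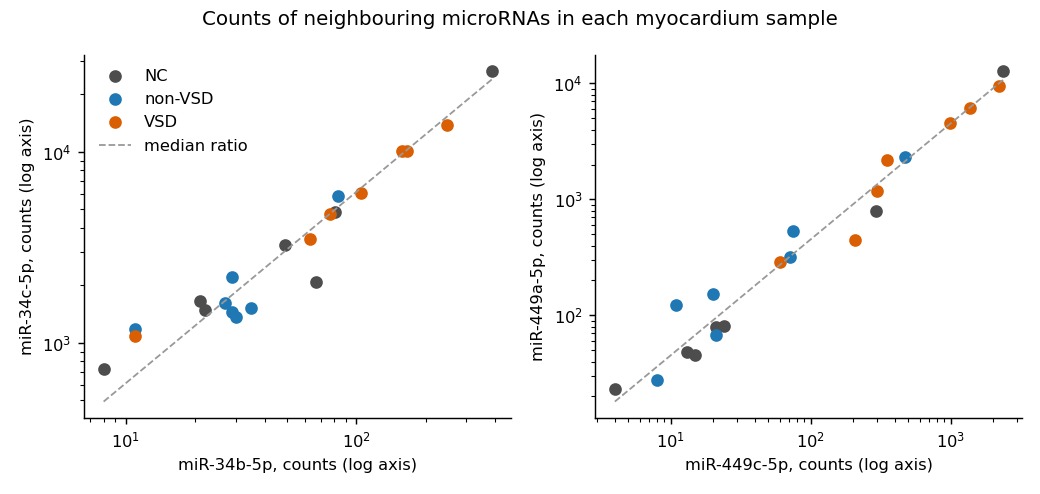
Counts of the 2 members of each cluster against each other in the 21 myocardium samples, log axes, coloured by group, with the dashed line at the median ratio. Points of all 3 groups lie along the lines at 61.6 miR-34c-5p counts per miR-34b-5p count and 4.52 miR-449a-5p counts per miR-449c-5p count.

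Within each group, members were also compared by correlations of log2 CPM. There were 10 pairs in 3 groups, 30 relations in all, each with an exact two-sided permutation test over the 5040 pairings of 7 samples and Benjamini-Hochberg adjustment over the 30. Pearson's r was above 0 in 29 of 30. The relations share members and libraries, and other microRNA pairs were not correlated in this way, so nothing is read from that count. For miR-449a-5p and miR-449c-5p, r was 0.99 in NC, 0.94 in non-VSD and 0.95 in VSD (Spearman's rho 0.96, 0.93 and 0.93). The exact permutation p was 0.000397, 0.00218 and 0.00238 for r, adjusted to 0.0119, 0.0179 and 0.0179, and 0.00278, 0.00675 and 0.00675 for rho, adjusted to 0.0405 in each. Without the 2 samples farthest from the median of miR-449a-5p, r was 0.96, 0.84 and 0.78. For miR-34b-5p and miR-34c-5p, r was 0.93, 0.71 and 0.90 (rho 0.96, 0.82 and 0.93), with adjusted exact permutation p of 0.0179, 0.156 and 0.0536 for r and 0.0405, 0.146 and 0.0405 for rho. Without the 2 farthest samples it was 0.83, 0.62 and 0.997. No pair of members from different loci reached an adjusted exact permutation p under 0.05, whereas with scaling by library size only 2 did, miR-34a-5p with miR-449c-5p in NC and miR-34a-5p with miR-34b-5p in VSD. miR-34c-5p and miR-449a-5p had r of 0.80, 0.56 and 0.69 (rho 0.61, 0.25 and 0.75). Without the 2 farthest samples, r went to 0.59, 0.07 and 0.25. Leaving these samples out also narrows the range, so the fall cannot show that the relation of this pair rests on them. Other pairs across loci did not all weaken in this way: in VSD, r rose from 0.80 to 0.97 for miR-34a-5p with miR-449a-5p and from 0.36 to 0.63 for miR-34b-5p with miR-449c-5p.

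Of the other strands of the hairpins, miR-34b-3p and miR-34c-3p had enough counts to be fitted. The sequences of the miR-34b/c strands are shown because both were counted in every myocardium sample, with the seed in capitals.
miR-34b-3p: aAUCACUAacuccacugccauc
miR-34c-3p: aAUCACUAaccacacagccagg

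These 2 strands share a seed of their own, AUCACUA, and not that of the family. miR-34b-3p was as abundant as miR-34b-5p, with a median 5p to 3p ratio of 0.919 and 1784 against 1708 counts in all myocardium samples. miR-34c-5p outnumbered miR-34c-3p by a median of 135-fold. In VSD against non-VSD myocardium the log2 fold changes were 0.92 (SE 0.44) for miR-34b-3p and 0.95 (SE 0.51) for miR-34c-3p, beside 1.14 and 1.19 for their partners. Against NC, the DMO average was -0.21 (SE 0.37) and -0.53 (SE 0.43), with edgeR adjusted p of 0.802 and 0.517. miR-449a-3p had 284 counts over the 21 samples and was at 0 in 6 of them, and miR-34a-3p had at most 4 counts in a sample.

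The share of the miR-449 members in the family's counts also differed between samples, though over a narrower range than their levels. In myocardium their summed share had a median of 4.25% in NC (1.52% to 35.1%), 10.9% in non-VSD (1.81% to 30.2%) and 32.8% in VSD (6.38% to 42.7%). The 35.1% was NC replicate 2. miR-34c-5p made up most of the rest, with median shares of 79.3%, 74.5% and 59.95%. Kits capture microRNAs unequally, so shares compare samples of 1 tissue rather than true amounts of the members.

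**Figure D3:**
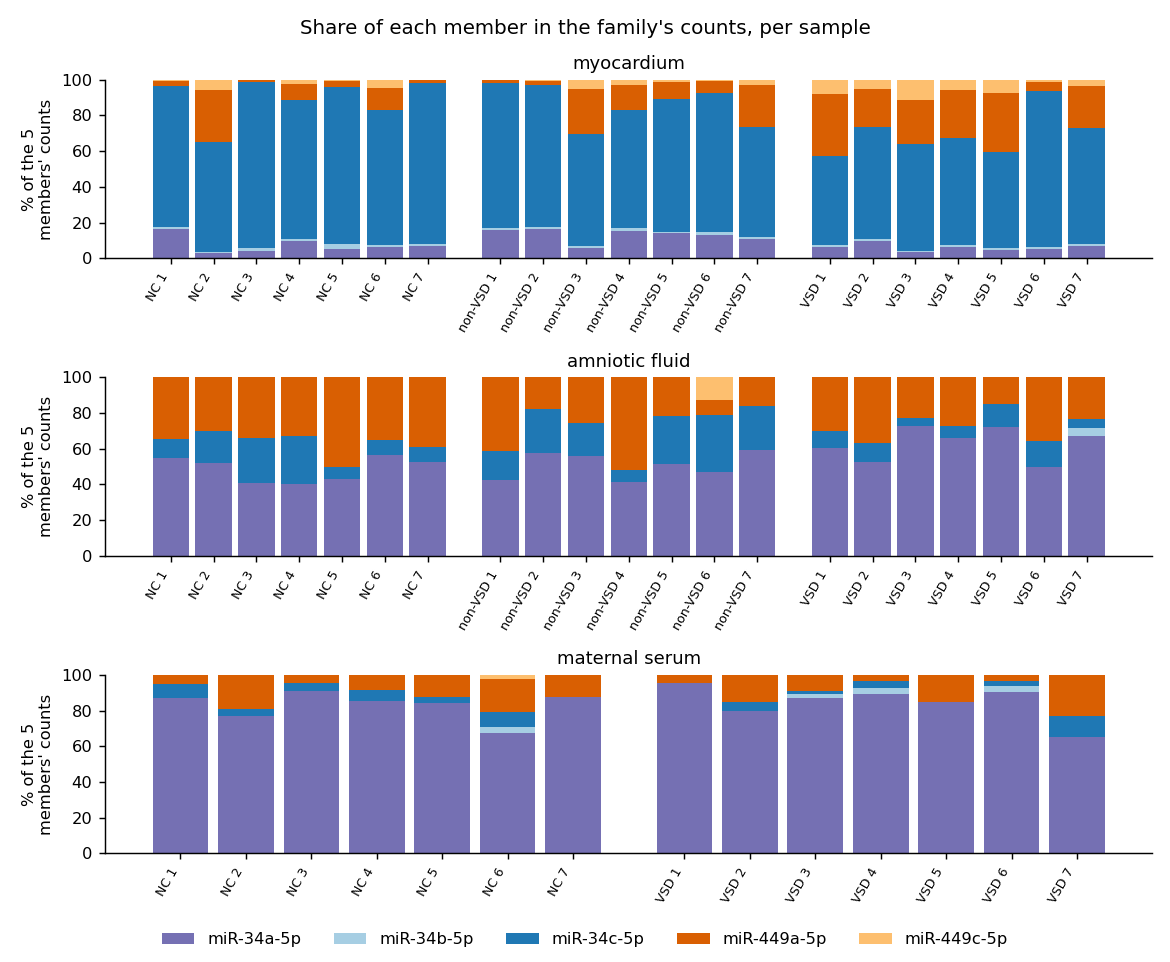
Share of each member in the summed counts of the 5 members, in percent, for every sample of myocardium, amniotic fluid and maternal serum (replicate numbers as labelled). miR-34c-5p leads in every myocardium sample with at least 50.0%, miR-34a-5p leads in maternal serum with at least 65.4%, and the miR-449 share in myocardium has medians of 4.25% (NC), 10.9% (non-VSD) and 32.8% (VSD).

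Marker microRNAs of other cell types are described here in the contrast that chose the members, without a test. The 8 epithelial microRNAs were all higher in VSD than in non-VSD myocardium, with a median log2 fold change of 1.61. Their standard errors were 0.63 to 0.96. The 6 heart muscle microRNAs were all lower, with a median of -0.54 and standard errors of 0.32 to 0.57. For miR-133a-3p, miR-133b-3p and miR-208a-3p the value was smaller than its standard error. The median over all microRNAs was 0.02. The summed epithelial level ran from 1984 to 15250 CPM in VSD (median 3265 CPM), from 322 to 6580 CPM in non-VSD (median 1697 CPM) and from 251 to 14234 CPM in NC (median 1366 CPM). The summed heart muscle level ran from 5426 to 41937 CPM in VSD (median 20214 CPM), from 23300 to 45453 CPM in non-VSD (median 41715 CPM) and from 4079 to 99040 CPM in NC (median 37450 CPM). No epithelial marker was at 0 throughout a group. In the VSD group, replicates 1, 4 and 5 had the most of the epithelial list (15250, 12120 and 11596 CPM), and they also had the most miR-449a-5p (819, 384 and 640.5 CPM). This did not hold for miR-449c-5p, where VSD replicate 3 (110 CPM, epithelial sum 2521 CPM) was above VSD replicate 4 (83.1 CPM). NC replicate 2 was the highest NC sample for the epithelial list and for miR-449a-5p. The neural list (miR-9a-5p, miR-124-3p and miR-137-3p) was also higher in 3 of 3, with a median of 1.27. Red blood cell microRNAs (4 of 4 lower, median -0.49) and X-linked microRNAs of germ cells (4 of 4 tested lower, median -0.44, out of 12) were not higher. The part of these lists in the result was not tested. In bulk tissue, fewer cells of a type and less RNA per cell cannot be told apart.

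Across the 21 myocardium samples, Spearman's rho of log2 CPM with the 8 epithelial microRNAs was between 0.82 and 0.95 for miR-449c-5p and between 0.86 and 0.95 for miR-449a-5p. It was between 0.59 and 0.75 for miR-34c-5p, 0.58 and 0.70 for miR-34b-5p, and 0.67 and 0.78 for miR-34a-5p. With the 6 heart muscle microRNAs it was below 0 throughout, from -0.85 to -0.10 for miR-449c-5p and from -0.63 to -0.21 for miR-34c-5p. Over all 478 other microRNAs kept in myocardium, the median rho was -0.09 with miR-449c-5p and 0.01 with miR-34c-5p. The points share their library and depth, and the group differences above enter these values. The epithelial list had been written with values of these samples in view, so it is not independent evidence.

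**Figure D4:**
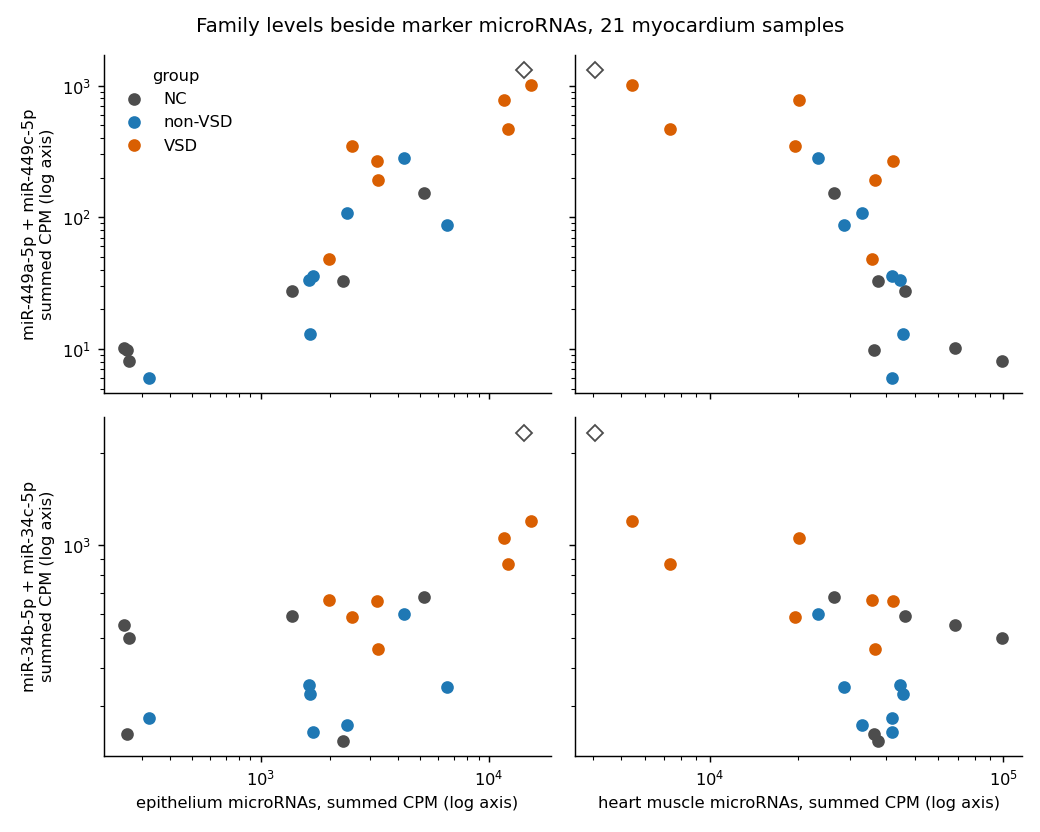
Summed CPM of miR-449a-5p and miR-449c-5p (top) and of miR-34b-5p and miR-34c-5p (bottom) against the summed CPM of 8 epithelial (left) and 6 heart muscle (right) microRNAs in the 21 myocardium samples, log axes, coloured by group, with the open diamond for NC replicate 2. The samples with the most epithelial microRNAs, NC replicate 2 at 14234 CPM and VSD replicate 1 at 15250 CPM, have the most of both clusters and the lowest heart muscle sums, 4079 and 5426 CPM.

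The microRNAs with the most similar pattern over the 21 myocardium samples differed between the clusters. For miR-449c-5p they were miR-200a-3p (rho 0.95), miR-205 (0.94), miR-200c-3p (0.93), miR-200b-3p (0.92) and miR-337-3p (0.92), of which the first 4 are epithelial microRNAs. Within the NC group alone those values were 0.96, 0.93, 0.89, 0.96 and 0.96, and within the VSD group alone they were 0.82, 0.79, 0.71, 0.82 and 0.64. For miR-34c-5p the 2 highest were the strands from its own locus, miR-34b-3p (0.85) and miR-34c-3p (0.84). They were followed by miR-503-5p (0.80), related to the miR-15/16 family, by miR-375-3p (0.75), known from endocrine and epithelial cells, and by miR-1188-5p (0.74). Of the 478 other microRNAs, 35 had a rho over 0.8 with miR-449c-5p and 3 with miR-34c-5p.

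In amniotic fluid, 3 of 5 members passed the filter on low counts, each with counts in all 21 samples. miR-34a-5p stood between 374 and 1297 CPM in NC (median 993 CPM), between 395 and 856 CPM in non-VSD (median 648 CPM) and between 531 and 1825 CPM in VSD (median 995 CPM). Of the VSD samples, 5 of 7 were above every non-VSD sample, and the ranges overlapped. VSD was higher than non-VSD by 0.81 on the log2 scale (SE 0.35, edgeR adjusted p = 0.331), which had an unadjusted p under 0.05 but missed both 2-fold and the adjusted threshold. No member was a DE-microRNA in this comparison, where 3.3% of 273 microRNAs were and 0 passed an adjusted p under 0.05 (29 at an unadjusted p under 0.05 in edgeR). The amniotic fluid samples were not used to choose the members.

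miR-449a-5p ran from 232 to 881 CPM in NC (median 738 CPM), from 68.1 to 1017 CPM in non-VSD (median 272 CPM) and from 347 to 1177 CPM in VSD (median 384 CPM). All 7 VSD samples were above the non-VSD median, yet 6 of 7 were below the NC median. Its log2 fold change was 0.35 (SE 0.49) for VSD against non-VSD, and without VSD replicate 2, the sample at 1177 CPM, it was -0.0345. miR-34c-5p was the lowest of the 3 members by median in amniotic fluid. It ran from 56.8 to 657.5 CPM in NC (median 236.5 CPM) and from 127 to 351 CPM in non-VSD (median 246 CPM). In VSD it ran from 73.7 to 336 CPM (median 116.5 CPM). Its log2 fold change between VSD and non-VSD was -0.63 (SE 0.57), opposite in sign to the myocardium value. The difference between tissues was not tested.

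Against NC, no member was a DE-microRNA in amniotic fluid. VSD against NC gave log2 fold changes of 0.48 (SE 0.37) for miR-34a-5p, -0.69 (SE 0.60) for miR-34c-5p and -0.28 (SE 0.39) for miR-449a-5p, with edgeR adjusted p of 0.623, 0.668 and 0.780. In that comparison 6.94% of 245 microRNAs were DE-microRNAs. Non-VSD against NC gave -0.28, -0.03 and -0.54, with edgeR adjusted p of 0.755, 0.980 and 0.637, where 12.4% of 242 microRNAs were DE-microRNAs and 4.96% passed an adjusted p under 0.05. These comparisons share the NC samples.

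The other 2 members were at or near 0 in amniotic fluid. miR-34b-5p had 9 counts, all in 1 VSD sample, and miR-449c-5p had 8 counts, all in 1 non-VSD sample. A count of 0 allows between 9.04 and 38.4 CPM in these libraries. The miR-34b and miR-34c 3p strands were counted, with 362 and 306 counts over the 21 samples, and were not DE-microRNAs in any of the 3 comparisons (edgeR adjusted p between 0.352 and 0.882). In VSD against non-VSD miR-34c-3p was at 0.80 (SE 1.05), on the other side of 0 from miR-34c-5p. The epithelial list was at high levels, with a median sum of 114270 CPM in NC, 73972 CPM in non-VSD and 114859 CPM in VSD, and 0 of 8 were DE-microRNAs in each of the 3 comparisons. Of the 4 red blood cell microRNAs, 4 were DE-microRNAs in non-VSD against NC and 2 in VSD against NC, all higher, and 0 in VSD against non-VSD.

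In maternal serum, miR-34a-5p alone passed the filter. It had 16 to 59 counts per sample, between 63.9 and 198 CPM in NC (median 108 CPM) and between 59.6 and 148 CPM in VSD (median 82.9 CPM), and the groups overlapped. The log2 fold change was -0.20 (SE 0.30, edgeR adjusted p = 0.793). Of the 219 microRNAs tested, 4.57% were DE-microRNAs, and 0 passed an adjusted p under 0.05 (30 at an unadjusted p under 0.05 in edgeR). miR-449a-5p was counted in all 14 samples, at 1 to 15 counts each. miR-34c-5p had 27 counts over 11 of 14 samples, miR-34b-5p 6 over 4 samples and miR-449c-5p 2 in 1 NC sample. At this depth a difference in these 4 members was not detectable.

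**Figure D5:**
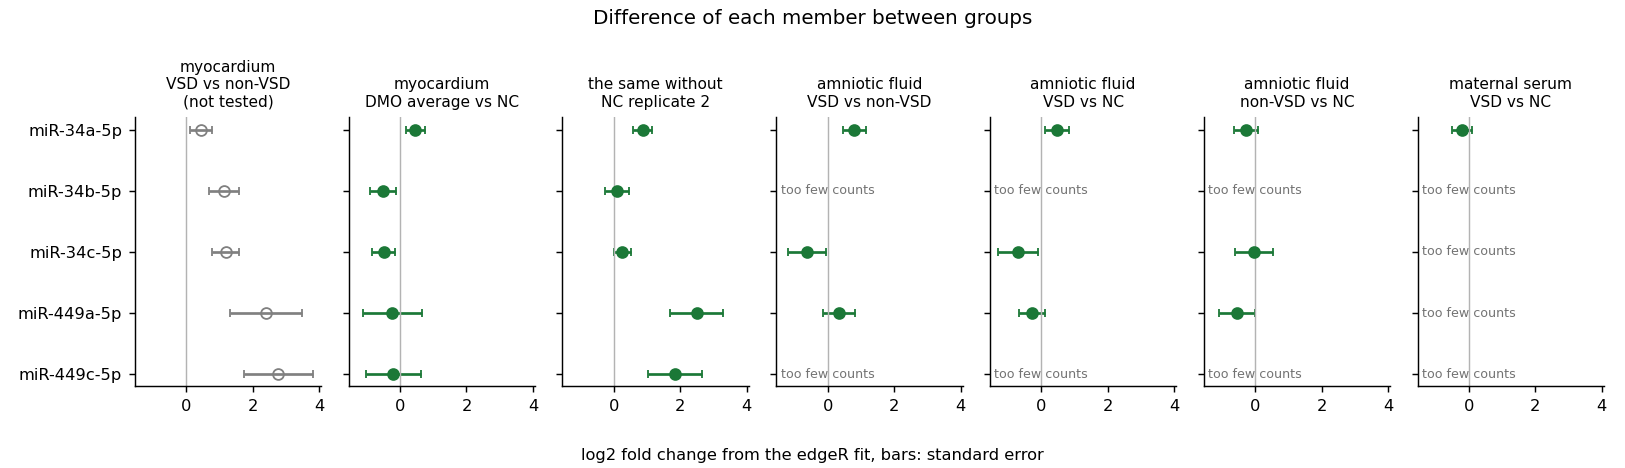
Log2 fold change of each member with its standard error from the edgeR fits, for myocardium, amniotic fluid and maternal serum, where open grey points are the contrast that chose the members and filled points were tested. The miR-449 points in myocardium move from -0.24 and -0.20 to 2.49 and 1.83 for the DMO average against NC when NC replicate 2 is left out, and members with too few counts to be tested are named so.

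Other microRNAs linked to p53, which induces some of them and aids the processing of others, were taken as a list of 8. In myocardium 0 of 7 tested were DE-microRNAs for the DMO average against NC (2 higher and 5 lower, median log2 fold change -0.25, and -0.06 over all 483 microRNAs). In amniotic fluid 1 of 7 was lower in VSD than in NC (miR-215, log2 fold change -1.04, edgeR adjusted p = 0.344) and 1 of 7 was higher in non-VSD than in NC (miR-145-5p, 1.61, edgeR adjusted p = 0.220). In VSD against non-VSD amniotic fluid 1 of 8 was lower (miR-145-5p, -1.77, edgeR adjusted p = 0.331). Over all microRNAs tested in these amniotic fluid comparisons, 6.94%, 12.4% and 3.3% were DE-microRNAs, in the order given. Nothing is read from a single call in so short a list. In maternal serum 0 of 7 were DE-microRNAs.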

How the data were processed

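Small RNA from 3 rat tissues (fetal myocardium, amniotic fluid, serum of the dams) was sequenced by the authors, who trimmed and filtered the reads and deposited raw counts per mature microRNA. The submitters' processing notes name bcl2fastq 2.19 and DESeq. The aligner, annotation and build, and whether molecular identifiers were counted, are not given in the sources used here. The authors also deposited a library-scaled signal (myocardium and serum) and CPM (amniotic fluid), and their own comparisons as fold and log2 values with p-values. None of these was used. NC samples of myocardium and of amniotic fluid stand in 2 tables each, with 0 differing counts, and 0 pairs of samples were identical.

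Counts were filtered by filterByExpr (minimum count 10, minimum total 15), scaled by TMM and tested with edgeR 4.0.16 in R 4.3.3 (glmQLFit), with adjustment over all microRNAs tested. CPM on the log2 scale had a prior count of 2. The fits were repeated with DESeq2 1.42.0, with limma 3.58.1 (log2 of CPM + 1), with library size only, with no filter, other groups in the fit or a replicate block, and without each sample. Leaving NC replicate 2 out of VSD against non-VSD myocardium was added after seeing the data. The fits were tested on simulated data.

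The members and marker lists were chosen with earlier results of these data known. The rule for names took the 5 members, their 3p strands, other rat microRNAs with their seed (0 found), the 5 microRNAs most like miR-34c-5p and the 5 most like miR-449c-5p over the 21 myocardium samples, and list members as counts and examples.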

Additional observations from a re-analysis of the deposited data

Results flagged for a closer look

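In 26 combinations of a member and a group of 7 samples, 8 had a sample far from the others by Dixon's test on CPM. Chance flags about 1 in 20 groups where values are normally distributed and groups independent. These CPM are skewed and the combinations share libraries, so the count is not set against that rate. In NC myocardium, replicate 2 stood apart for 4 of 5 members. It had 2289 CPM of miR-34c-5p (next 668 CPM), 1107 CPM of miR-449a-5p (next 111 CPM), 205 CPM of miR-449c-5p (next 40.9 CPM) and 105.5 CPM of miR-34a-5p (next 56.2 CPM). In non-VSD myocardium, replicate 3 stood apart for 3 members, with 591 CPM of miR-34c-5p (next 344 CPM), 234.5 CPM of miR-449a-5p (next 94.9 CPM) and 47.9 CPM of miR-449c-5p (next 15.8 CPM). Its summed epithelial level, 4230 CPM, was below that of non-VSD replicate 4 (6580 CPM). In VSD amniotic fluid, replicate 2 had 1177 CPM of miR-449a-5p (next 414 CPM).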

How the results depend on the processing

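Library size alone moved the median microRNA by 0.32 on the log2 scale for the DMO average against NC in myocardium, and by 0.15, 0.39 and 0.21 for VSD against non-VSD, VSD against NC and non-VSD against NC. For the DMO average against NC, miR-449a-5p turned positive with limma (1.56), with a replicate block (1.70) and with the DMO samples pooled (0.21), and miR-449c-5p likewise (1.12, 0.95 and 0.38). The cause was not tested. Leaving out single samples the log2 fold changes ran from -0.67 to 0.11 for miR-34b-5p, -0.65 to 0.26 for miR-34c-5p, -0.61 to 2.49 for miR-449a-5p and -0.66 to 1.83 for miR-449c-5p, and the members past each threshold from 0 to 2, where the upper ends belonged to NC replicate 2. For miR-34c-5p in non-VSD against NC amniotic fluid, the value turned to 0.055 (DESeq2), 0.38 (limma), 0.016 (no filter) and 0.33 (replicate block), and ran from -0.29 to 0.41 without single samples. miR-449a-5p in VSD against non-VSD amniotic fluid ran from -0.0345 to 0.82. With no filter, 1 member was a DE-microRNA in VSD against NC, 1 in non-VSD against NC and 2 in VSD against non-VSD amniotic fluid, namely those counted in 1 sample, where 17%, 21.5% and 16.8% of all microRNAs were DE-microRNAs. In non-VSD against NC myocardium, miR-449a-5p was 1.07 with DESeq2. With library size only, 7 of 30 correlations passed in place of 4, and miR-34a-5p with miR-449a-5p in non-VSD became 0.30. Whether the replicate numbers pair the samples is not stated in the labels. Same-numbered samples correlated from -0.63 to 0.47 in myocardium, -0.25 to 0.31 in amniotic fluid and -0.14 to 0.34 in serum. The medians were -0.07, 0.006 and 0.15. These values do not decide it, since no differently numbered samples are given beside them. The replicate block changed no count of members called, and gave 3.45 for miR-449c-5p in VSD against NC myocardium. The members' mean levels moved by less than 1 SD with library size only. Depth limits amniotic fluid and serum, where members under the filter have no fold change.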
